A study of Mus musculus with 6 samples.

Results

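Amino acid transporter genes were described in cultures of adherent mouse marrow cells that the labels call macrophages. The rule that picks the genes uses only their symbols, but the set was proposed with earlier results of these data known. It took every gene of the solute carrier families Slc1a, Slc7a, Slc36a, Slc38a and Slc43a, the 2 heavy chain genes Slc3a1 and Slc3a2, the taurine and glycine carriers Slc6a6 and Slc6a9, and the aromatic amino acid carrier Slc16a10. Slc38a4 and Slc7a11 were left out by the rule. This gave 43 of the 39017 genes in the count table, of which 32 had enough counts to be tested and 11 did not. RNA was sequenced in 3 libraries from young mice (3 weeks of age) and 3 libraries from old mice (more than 78 weeks). The strain was inbred BALB/c with wild-type (WT) genotype throughout, and no treatment or allele differs between the ages in the labels. Marrow was freed by crushing femora, tibiae and humeri, the cells that stayed attached were expanded in serum-containing medium, and 10000 cells went into each library. The submitters describe the cells by the surface proteins F4/80 and CD169. Whether each library came from its own animal is not stated, and the p-values below measure the spread between these libraries, which may be technical. The comparison asks which amino acid carriers differ in expression between cultures from young and old marrow.

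Amino acids do not cross membranes unaided, and each carrier family moves a characteristic group of them. Some carriers pump their substrate into the cell with sodium or protons, some exchange one amino acid for another, and some let it flow down its gradient. Several carriers of the Slc7 family are light chains that reach the surface only when bound to a heavy chain, the product of Slc3a1 or Slc3a2. In macrophages arginine uptake feeds nitric oxide and polyamine synthesis, and in bone-forming cells glutamine and proline uptake feeds collagen synthesis. When amino acids run short, the transcription factor ATF4 raises many of these carriers together with enzymes of amino acid synthesis.

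Total counts per library ranged from 34391206 to 43367734. The macrophage label was set against 12 macrophage markers, led by the lysozyme gene Lyz2 and the growth factor receptor gene Csf1r, and each of the 12 had counts. Their summed CPM (counts scaled to library size) was 8193 to 10180 in young and 4764 to 5127 in old libraries. For each of the 12, all old libraries lay below all young ones. With the edgeR test described below, 11 were called lower (8 to 11 on leaving out 1 library). That is 91.7% called, beside 10.5% of all tested genes. Markers of connective tissue cells, led by the collagen genes Col1a1 and Col1a2, summed to 30820 to 68480 CPM in young against 23530 to 29640 CPM in old libraries, above the macrophage sum in every library. Of the 11 genes in that list, 2 were called higher and 2 lower in old libraries (2 to 3 and 0 to 1 on leaving out 1 library). That is 36.4% called, beside 10.5% of all tested genes. The log2 fold changes of the 11 genes ran from -3.14 to 1.36. Young replicate 3 held the highest value of 68480 and stood apart on the second principal component. Transcripts typical of other cell types were thus abundant in these libraries. In such bulk RNA, fewer cells of a type and less RNA per cell cannot be told apart.

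Across the 32 tested transporters, 3 were higher and 3 lower in old libraries at an adjusted p of 0.05 (edgeR quasi-likelihood test, adjusted over all 15567 genes tested), and 26 did not pass. Slc1a6, Slc6a9 and Slc7a2 rose, and Slc7a7, Slc43a2 and Slc7a8 fell. That is 18.8% of the tested transporters, beside 10.5% of all genes tested, of which 5.84% were higher and 4.70% lower. The median log2 fold change (old minus young) was 0.00 over the tested transporters and -0.01 over all tested genes. The median size of the change, regardless of sign, was 0.32 and 0.20. A change over 1 on the log2 scale, in either direction, was found for Slc1a6 alone of the 32 and for 1468 of the 15567 genes tested. The young and old CPM ranges were separate for 14 of the 32, beside 30.2% of all tested genes. Leaving out 1 library in turn gave 1 to 4 higher and 1 to 4 lower transporters. The Slc1a6 and Slc7a7 calls were kept in each of these 6 fits, and the other 4 calls were each lost in at least 3. Without young replicate 3, all 6 calls were kept and Slc38a2 (higher) and Slc1a4 (lower) were added.

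**Figure D1:**
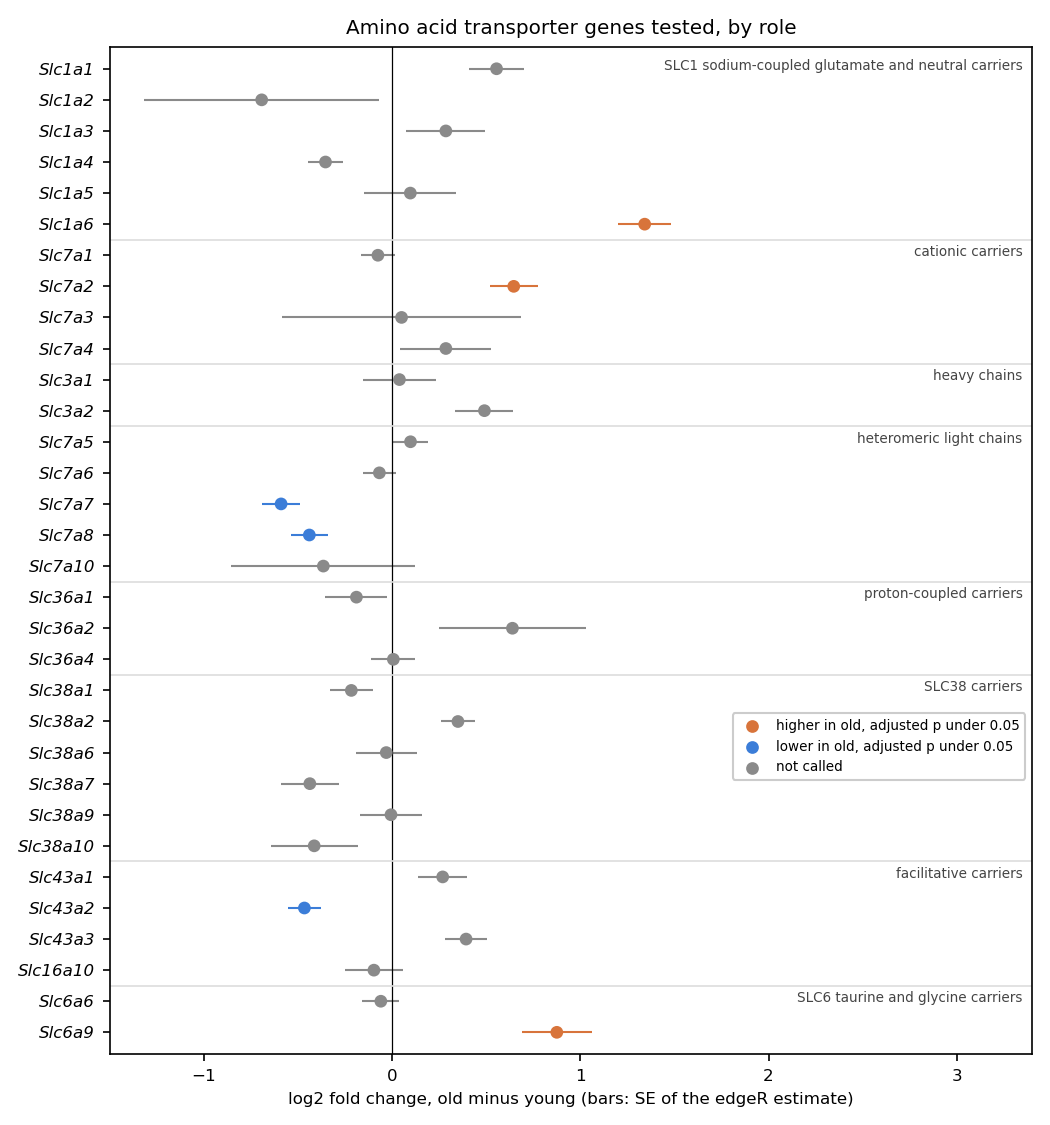
Log2 fold change (old minus young, x axis) with its standard error for the 32 tested transporter genes (y axis), grouped by role. Orange marks the 3 genes called higher, blue the 3 called lower and grey the 26 not called; Slc1a6 lies farthest to the right at 1.34.

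The promoter sequences of Slc1a6 and Slc7a7 are shown because these genes moved in opposite directions and kept their calls in each fit that left out 1 library. Each line gives the 250 bases before a RefSeq transcription start, on the GRCm38 build and read on the strand of the gene. Capitals mark a match to one of 3 motifs searched on both strands. In Slc1a6 (chr10:78780246-78780495, plus strand) the match is an E-box, CACGTG, a site type of MYC and of the lysosomal regulators TFEB and TFE3. In Slc7a7 (chr14:54417703-54417952, minus strand, 1 of 5 annotated starts) it is TGATGNAA, the core of the response element of C/EBP and ATF factors. That match lies at -243 from the start. The start shown is one whose window holds a match, and most windows of Slc7a7 hold no match to any of the 3 motifs.
Slc1a6: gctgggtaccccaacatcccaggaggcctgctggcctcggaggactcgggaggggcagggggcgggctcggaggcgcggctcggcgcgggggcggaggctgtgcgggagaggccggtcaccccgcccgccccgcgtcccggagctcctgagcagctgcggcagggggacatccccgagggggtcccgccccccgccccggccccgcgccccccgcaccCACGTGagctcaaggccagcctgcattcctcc
Slc7a7: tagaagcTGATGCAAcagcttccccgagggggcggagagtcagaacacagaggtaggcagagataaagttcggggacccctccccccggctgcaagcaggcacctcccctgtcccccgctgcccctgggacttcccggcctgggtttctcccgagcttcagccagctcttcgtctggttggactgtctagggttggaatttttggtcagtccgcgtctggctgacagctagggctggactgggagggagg

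RefSeq windows of 300 bases (250 before to 50 after a start) were found for 31 of the 43 transporters, 42 windows in all. TGATGNAA was present in windows of 2 transporters, Slc7a7 (2 of its 5 overlapping or separate windows) and Slc1a4. That is 7.14% of the 42 transporter windows, beside 3.97% of all 32851 windows. CACGTG was present in windows of 7 transporters: Slc1a6, Slc1a7, Slc36a1, Slc38a5, Slc38a7, Slc43a1 and Slc7a14. Of these, Slc1a7, Slc38a5 and Slc7a14 had too few counts to be tested. Slc36a1 and Slc38a7 are lysosomal carriers, while the window of the lysosomal Slc38a9 held no match. The share of CACGTG was 16.7% of the transporter windows, beside 7.15% of all windows. TGACNNNGC, the core of the antioxidant response element, was present in windows of 6 transporters: Slc36a1, Slc38a2, Slc43a1, Slc6a9, Slc7a1 and Slc7a6. Its share was 19.0% of the transporter windows, beside 12.4% of all windows. No test compared these shares. In Slc36a1 a match to CACGTG overlaps a match to TGACNNNGC. A match describes these letters only.

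The Slc1a family holds sodium-coupled carriers of glutamate and of small neutral amino acids, and 1 of its 6 tested members rose. That is 16.7% called, beside 10.5% of all tested genes. Slc1a6 encodes EAAT4, a glutamate carrier known from Purkinje neurons of the cerebellum. Counts were 241, 295 and 299 for the young libraries and 863, 856 and 692 for the old, each in the order of replicates 1, 2 and 3, the order used throughout. All 3 old libraries lay above all 3 young ones, at 20.4 ± 1.62 against 8.03 ± 1.04 CPM (SD, n = 3 each). The log2 fold change was 1.34 with SE 0.14, a 2.54-fold rise (edgeR adjusted p = 0.00199). In mm10, the gene spans 78780496 to 78814765 of chromosome 10 (ENSMUSG00000005357, plus strand, protein-coding), and no other gene model shares its exons. Its log2 fold change stayed between 1.24 and 1.42 when any 1 library was left out, with an adjusted p of at most 0.0141.

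The other glutamate carriers of the family were low and did not pass. Slc1a1, encoding EAAC1, had 4.59, 5.40 and 5.17 CPM in young against 6.93, 8.02 and 7.33 CPM in old libraries. The old values were all higher, yet the edgeR adjusted p was 0.0573 (log2 fold change 0.55, SE 0.15), and 31.9% of its exon length is shared with 4430402I18Rik on the opposite strand. Slc1a3, the glial carrier GLAST, had a log2 fold change of 0.29 (SE 0.21) and overlapping ranges. Slc1a2, the carrier that clears most glutamate in the brain, had 4 to 17 counts per library, and Slc1a7, a retinal carrier, had 0 counts in all 6.

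The neutral carriers of the family were far more abundant. Slc1a4, which exchanges alanine, serine and cysteine, had 73.8, 67.9 and 81.8 CPM in young against 58.6, 58.0 and 58.3 CPM in old libraries. The ranges did not overlap, but the edgeR adjusted p was 0.0527 (log2 fold change -0.35, SE 0.09). Slc1a5, the glutamine carrier ASCT2, had 173, 192 and 210.2 CPM in young against 125.7, 244.4 and 244.8 CPM in old libraries. Old replicate 1 thus lay below all young libraries and the other old ones above them, and the log2 fold change was 0.10 with SE 0.24.

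Among the carriers of cationic amino acids, 1 of 4 tested members rose (25.0% called, beside 10.5% of all tested genes). Slc7a2 encodes CAT2, which takes up arginine, lysine and ornithine and is known to supply arginine to activated macrophages. It had 12.7, 14.4 and 12.1 CPM in young against 21.8, 21.4 and 18.2 CPM in old libraries. The ages did not overlap, and the log2 fold change was 0.65 with SE 0.13, a 1.57-fold rise (edgeR adjusted p = 0.0211). The gene lies on chromosome 8 at 40862396 to 40922308 (ENSMUSG00000031596, plus strand). Gm26584 on the opposite strand shares 6.95% of its exon length. The call was lost without young replicate 1, old replicate 1 or old replicate 2 (adjusted p up to 0.0941). Slc7a1, encoding the broadly expressed CAT1, had 37.6 ± 2.55 CPM in young against 35.7 ± 1.36 CPM in old libraries, with overlapping ranges (log2 fold change -0.08, SE 0.09). Per kilobase of exon, the level of Slc7a2 relative to Slc7a1 was 0.410, 0.525 and 0.392 in young and 0.800, 0.758 and 0.620 in old libraries. Slc7a4, an orphan relative, had a log2 fold change of 0.29 (SE 0.24), and Slc7a3 had 6 to 38 counts per library.

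Of the heavy chains and their light chains, 2 light chains fell and the heavy chains did not pass. Slc3a2 encodes the CD98 heavy chain, the partner of most Slc7 light chains at the surface. It had 213.5, 315.1 and 316.9 CPM in young against 407.9, 405.4 and 374.6 CPM in old libraries. The old libraries were all above the young ones, while young replicate 1 lay well below its own group. The log2 fold change of 0.49 (SE 0.15) did not pass (edgeR adjusted p = 0.0973). Slc3a1, the heavy chain of the kidney cystine carrier, was low at 5.10 ± 1.06 and 5.24 ± 0.268 CPM, and 26.5% of its exon length is shared with Prepl on the opposite strand. Of these 2 heavy chains 0 passed with edgeR, 1 had an unadjusted p under 0.05, 1 was called higher with DESeq2 and 0 with limma-voom.

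Of the 5 tested light chains, 2 fell and 3 did not pass, which is 40.0% called beside 10.5% of all tested genes. Slc7a7 encodes y+LAT1, which exports cationic amino acids in exchange for neutral ones and is mutated in lysinuric protein intolerance, a disease with marked macrophage involvement. It had 82.9, 77.9 and 72.4 CPM in young against 54.8, 54.1 and 46.0 CPM in old libraries, with no overlap, and 7.0% of its exon length is shared with Oxa1l on the opposite strand. The log2 fold change was -0.59 with SE 0.10 (1.51-fold lower, edgeR adjusted p = 0.0127). Each fit that left out 1 library kept the call, with an adjusted p of up to 0.0499. Slc7a8 encodes LAT2, an exchanger of large and small neutral amino acids. It had 133.3, 159.4 and 168.3 CPM in young against 114.7, 114.3 and 110.7 CPM in old libraries, a log2 fold change of -0.44 with SE 0.10 (edgeR adjusted p = 0.0339). All young libraries lay above the old ones, but of the 6 fits that left out 1 library only those without young replicate 1 or 3 kept the call (adjusted p otherwise up to 0.123).

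Slc7a5 and Slc7a6, the closest relatives of these exchangers among the members, did not pass. Slc7a5, encoding LAT1, the main carrier of leucine and other large neutral amino acids, had 185.5 ± 12.8 CPM in young against 198.5 ± 17.7 CPM in old libraries (log2 fold change 0.10, SE 0.09). Slc7a6, encoding y+LAT2, had 60.4 ± 3.37 and 57.6 ± 3.08 CPM (log2 fold change -0.07, SE 0.09). Both had overlapping ranges. As a level per kilobase of exon, the ratio of Slc7a5 to Slc7a8 was 1.76, 1.55 and 1.60 in young and 2.26, 2.58 and 2.25 in old libraries. The ratio of Slc7a6 to Slc7a7 was 0.557, 0.565 and 0.570 in young and 0.807, 0.764 and 0.866 in old libraries. Both ratios were higher in all old libraries than in any young one. Because Slc7a8 and Slc7a7 were themselves called lower, these ratios restate those calls and add no support. Slc7a10, a carrier of small neutral amino acids, had 8 to 18 counts per library.

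The balance of heavy to light chains was read per exon length, as RPKM (CPM per kilobase of exon). Slc3a2 had 60.5, 89.3 and 89.8 RPKM in young and 115.6, 114.9 and 106.1 RPKM in old libraries. The 9 light chain members together summed to 112.7, 118.1 and 122.0 RPKM in young and 104.7, 110.7 and 98.0 RPKM in old libraries. The ratio of Slc3a2 to this sum was 0.676 ± 0.121 in young and 1.08 ± 0.0336 in old libraries (n = 3 each). It was below 1 in every young and above 1 in every old library. The level of this ratio depends on the exon lengths used and concerns RNA, not protein, so 1 marks no balance point. The pair ratios and this one were chosen after the values were seen and carry no test. Where a pair holds a called gene, its ratio restates that call. For Slc1a5 to Slc1a4 the ages overlapped, at 2.20, 2.66 and 2.42 in young and 2.02, 3.965 and 3.95 in old libraries. For Slc38a2 to Slc38a1 they did not. The sum leaves out Slc7a11, another light chain of Slc3a2.

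**Figure D2:**
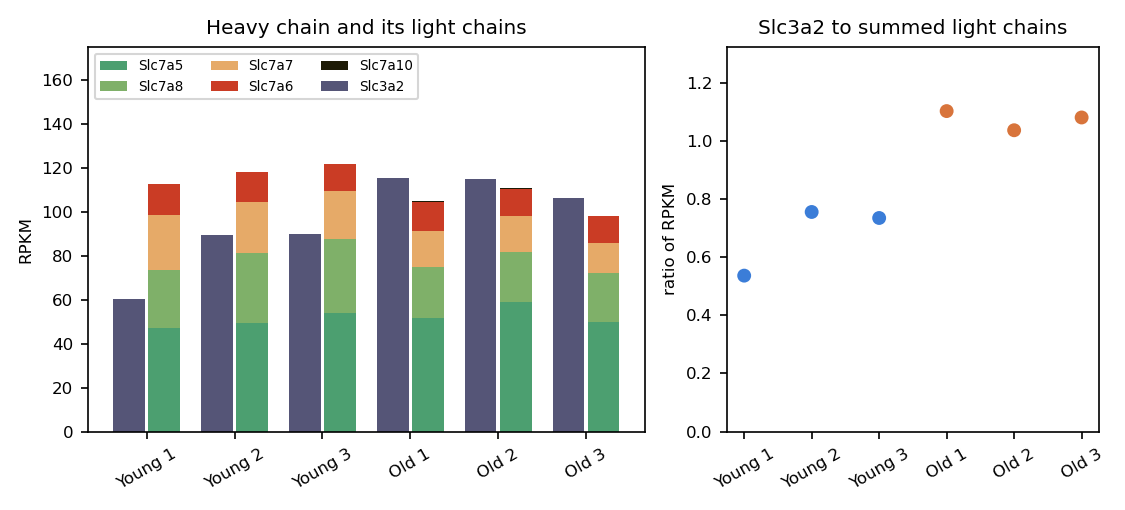
Left, RPKM (y axis) of the heavy chain Slc3a2 and, stacked beside it, of the 5 tested light chains in each of the 6 libraries. Right, the ratio of Slc3a2 to the summed light chains, 0.537 to 0.756 in young libraries (blue) and 1.04 to 1.10 in old libraries (orange).

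Slc7a7 and Slc7a8 are neighbours on chromosome 14 of the mm10 build, both on the minus strand. Slc7a7 (ENSMUSG00000000958) spans 54369442 to 54417780 and Slc7a8 (ENSMUSG00000022180) spans 54722209 to 54781946. The 304428 bases between them hold 12 tested genes, of which 0 passed with edgeR. Other tested neighbours are Slc43a1 and Slc43a3 on chromosome 2, Slc38a1 and Slc38a2 on chromosome 15, and Slc36a2 and Slc36a1 on chromosome 11. The 1 tested gene between Slc43a1 and Slc43a3, Rtn4rl2, was called higher, and the other pairs have 0 tested genes between them.

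Among carriers grouped as facilitative, which let their substrate pass down its gradient, 1 of 4 tested members fell. That is 25.0% called, beside 10.5% of all tested genes. The 4 include Slc43a3, whose substrates are not amino acids. Slc43a2 encodes LAT4, a carrier of branched-chain amino acids, phenylalanine and methionine. It had 155.0, 150.3 and 173.8 CPM in young against 118.0, 121.4 and 107.4 CPM in old libraries. The ages did not overlap, and the log2 fold change was -0.47 with SE 0.09 (1.38-fold lower, edgeR adjusted p = 0.0182). The gene lies on chromosome 11 at 75531694 to 75577575 (ENSMUSG00000038178, plus strand), and 9.18% of its exon length is shared with Gm45606 on the opposite strand. The call was lost without any 1 of the old libraries (adjusted p up to 0.0794).

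The relatives of Slc43a2 had positive values that did not pass. Slc43a1, encoding LAT3 with much the same substrates, had 9.21, 11.1 and 11.4 CPM in young against 13.0, 13.2 and 12.1 CPM in old libraries (log2 fold change 0.27, SE 0.13, edgeR adjusted p = 0.277). Slc43a3, which carries purine bases and not amino acids, had 35.4, 45.4 and 41.5 CPM in young against 53.5, 56.9 and 50.3 CPM in old libraries (log2 fold change 0.39, SE 0.11, edgeR adjusted p = 0.0748). Neither gene's ranges overlapped. The ratio of Slc43a1 to Slc43a2 per exon length was 0.117 ± 0.0129 in young and 0.194 ± 0.00371 in old libraries. Slc16a10, encoding the aromatic amino acid carrier TAT1, had 11.3 ± 0.902 and 10.6 ± 1.69 CPM with overlapping ranges.

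Of the 2 carriers driven by sodium and chloride, Slc6a9 rose and Slc6a6 did not pass. Slc6a9 encodes the glycine carrier GlyT1, known from glia and from erythroid precursors, which need glycine for heme. It had 13.3, 11.4 and 15.3 CPM in young against 20.8, 30.7 and 21.9 CPM in old libraries. Old replicate 2 was the highest, and all old libraries lay above the young ones. The log2 fold change was 0.88 with SE 0.19, a 1.83-fold rise (edgeR adjusted p = 0.0284). Of the 6 fits that left out 1 library, only the one without young replicate 3 kept the call (adjusted p otherwise up to 0.0889). The gene lies on chromosome 4 at 117834506 to 117875198 (ENSMUSG00000028542, plus strand) and shares 30.2% of its exon length with other gene models, mainly Ccdc24 on the opposite strand. Counts of Ccdc24 were 111, 144 and 229 for the young and 396, 477 and 246 for the old libraries (log2 fold change 1.01, edgeR adjusted p = 0.110). Where counting did not use strand, the reads of these overlapping genes cannot be told apart. The 8 erythroid markers summed to 0.743 to 2.40 CPM in young against 1.80 to 5.06 CPM in old libraries. Slc6a6, the taurine carrier, was abundant at 353.6 ± 36.4 and 339.1 ± 20.6 CPM, with a log2 fold change of -0.06 (SE 0.10).

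**Figure D3:**
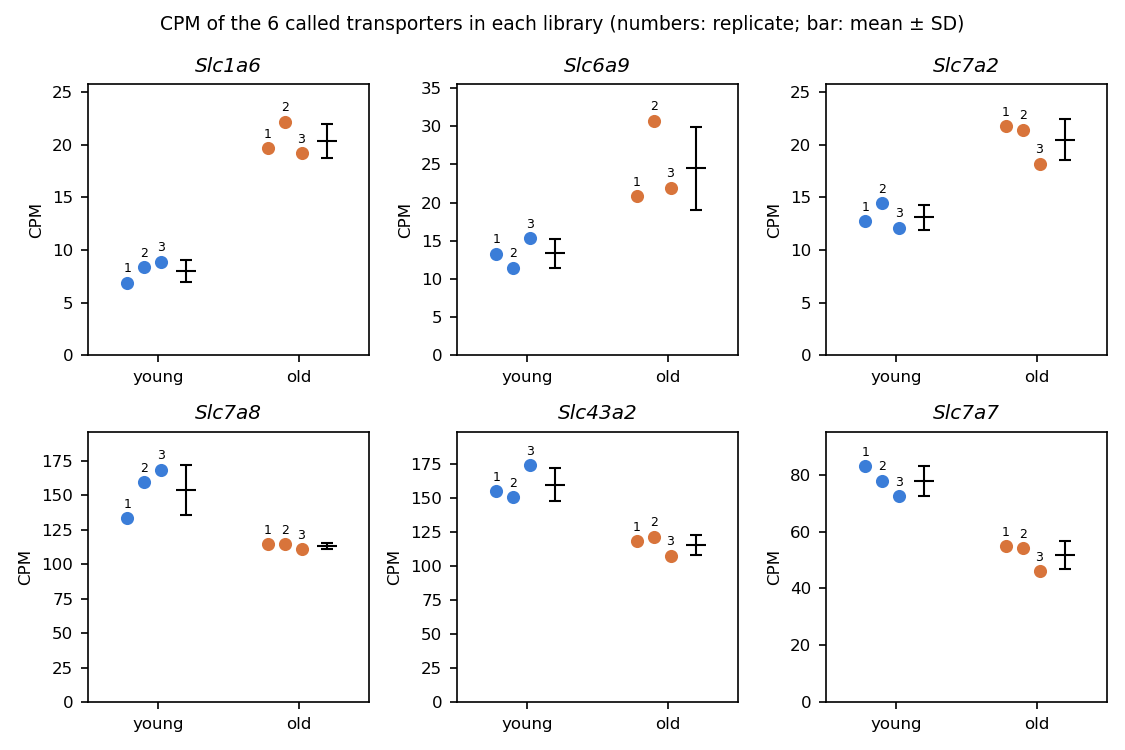
CPM (y axis, from 0) of the 6 called transporters in the 3 young (blue) and 3 old (orange) libraries, with replicate numbers beside the points and mean ± SD as a black bar. In every panel the ages are separate, with Slc1a6, Slc6a9 and Slc7a2 higher and Slc7a8, Slc43a2 and Slc7a7 lower in old libraries.

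The Slc38 family, sodium-coupled carriers of glutamine, alanine and other neutral amino acids, had 6 tested members and 0 that passed with edgeR. Of these 2 had an unadjusted p under 0.05, 1 was called higher with DESeq2, and 0 with limma-voom. Slc38a2, the system A carrier that cells raise when amino acids are scarce, had 278.8, 270.9 and 252.4 CPM in young against 332.2, 375.2 and 314.7 CPM in old libraries. The old values were all higher, at a log2 fold change of 0.35 with SE 0.09 (edgeR adjusted p = 0.0526). Its neighbour Slc38a1 had 42.0, 51.6 and 41.3 CPM in young against 40.9, 38.6 and 36.5 CPM in old libraries (log2 fold change -0.22, SE 0.11). The old values were all lower than the young ones, by a narrow margin. Slc38a7, which releases glutamine from lysosomes, had 43.6, 61.1 and 45.9 CPM in young against 42.3, 35.0 and 33.9 CPM in old libraries (log2 fold change -0.44, SE 0.16, edgeR adjusted p = 0.138).

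Slc38a9, which reports lysosomal arginine to the growth regulator mTORC1, had nearly equal means of 15.6 ± 3.10 and 15.5 ± 0.317 CPM. Slc38a6, a less studied relative, had 16.2 ± 1.63 and 15.9 ± 2.95 CPM. Slc38a10, a little-studied relative, had 321.2, 296.2 and 542.4 CPM in young against 259.5, 281.1 and 329.8 CPM in old libraries. Its young mean rests on young replicate 3, and its log2 fold change of -0.41 (SE 0.23) became -0.09 without that library.

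The proton-coupled Slc36 carriers, known in part from lysosomes, had 3 tested members. With edgeR 0 passed, 0 had an unadjusted p under 0.05, and 0 were called with DESeq2 or limma-voom. Slc36a4 was the most abundant per exon length, and its CPM of 60.6 ± 8.19 and 60.9 ± 3.51 gave a log2 fold change of 0.01 (SE 0.12). Slc36a1 had 5.97 ± 0.341 and 5.24 ± 0.767 CPM. Slc36a2, from the same cluster on chromosome 11, gave counts of 95, 32 and 58 for the young and 112, 128 and 88 for the old libraries (log2 fold change 0.64, SE 0.39).

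The 11 transporters below the filter had few or no counts in any library. Slc1a7, Slc7a9, Slc7a12, Slc7a15, Slc36a3, Slc38a8 and Slc38a11 had 0 counts in all 6, which allows up to 0.0692 to 0.0872 CPM per library (3 counts of the total, counting error only). Slc7a9 is the kidney light chain that pairs with Slc3a1. Slc38a3, a glutamine carrier of liver and kidney, had 6 counts, all in young replicate 3, and Slc38a5 had 2, both in old replicate 2. Slc7a13 had 7 counts in young replicate 3 and 4 in old replicate 3. Slc7a14 had 2 counts in young and 6 in old libraries.

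Per exon length, a few carriers held most of the transporter signal. Slc3a2, Slc38a10, Slc7a5, Slc1a5, Slc6a6 and Slc38a2 together made up 63.5% to 71.3% of the RPKM summed over the 43 genes in each library. Slc3a2 was first in both ages, at 79.9 ± 16.8 RPKM in young and 112.2 ± 5.26 RPKM in old libraries. In old libraries it was followed by Slc7a5 (53.5 ± 4.77), Slc1a5 (49.1 ± 16.5), Slc38a10 (45.2 ± 5.61) and Slc6a6 (40.1 ± 2.44), whose neighbouring values lie within their spread. In young libraries the same 4 followed, with Slc38a10 second at 60.2 ± 21.1 RPKM. Among called genes Slc7a8 was the most abundant, at 30.7 ± 3.64 and 22.6 ± 0.436 RPKM, and Slc7a2 the least, at 1.43 ± 0.131 and 2.24 ± 0.215 RPKM. Slc1a6 went from 3.73 ± 0.483 to 9.46 ± 0.752 RPKM and from rank 15 to rank 13. The RPKM sum over all 43 genes was 468 ± 46.5 in young and 482 ± 23.6 in old libraries, a difference within the spread.

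**Figure D4:**
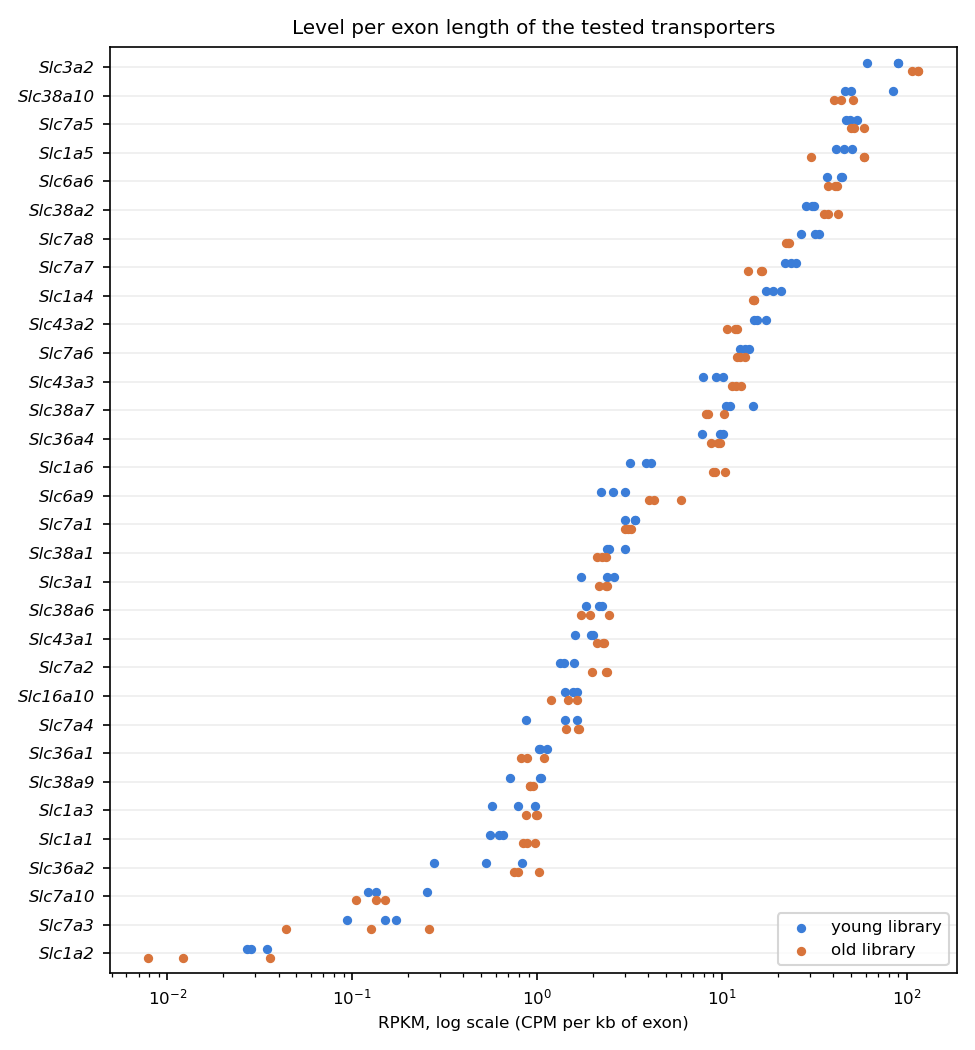
RPKM on a log axis (x) of the 32 tested transporters (y), with 1 point per library, young in blue and old in orange. Slc3a2 lies highest and Slc1a2 lowest, and the young and old points of Slc1a6 do not overlap.

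Marker lists of other cell types also differed by age in the same libraries. B lineage markers summed to 58.2 to 65.3 CPM in young against 167 to 248 CPM in old libraries, with 6 of 7 tested markers higher (3 to 6 on leaving out 1 library). Megakaryocyte marker sums were 47.2 to 84.8 CPM in young and 231 to 332 CPM in old libraries (4 of 7 higher, 1 to 6 on leaving out 1 library). Mast cell sums were 18.7 to 26.1 and 55.0 to 98.5 CPM (3 of 7 higher, 2 to 3 on leaving out 1 library). Adipocyte sums were 376 to 654 and 939 to 1137 CPM (4 of 6 higher, 3 to 4 on leaving out 1 library). Osteoclast sums were 201 to 242 and 452 to 562 CPM. Of 7 tested osteoclast markers, 2 were higher and 0 lower (2 to 3 and 0 to 1 on leaving out 1 library). T and NK cell markers summed to 14.9 to 23.9 CPM in young and 4.24 to 9.63 CPM in old libraries. Of 6 tested, 1 was lower (1 to 2 on leaving out 1 library). In the order given, these lists had 85.7%, 57.1%, 42.9%, 66.7%, 28.6% and 16.7% of tested markers called, beside 10.5% of all tested genes. Osteoblast markers were higher for 1 and lower for 5 of 10 (0 to 1 and 3 to 6 on leaving out 1 library), with overlapping sums. That is 60.0% called, beside the same 10.5%. Neutrophil, endothelial and proliferation markers had 0 calls of 8, 7 and 9 with edgeR, 2, 2 and 3 with an unadjusted p under 0.05, and 2, 1 and 2 with DESeq2. Neutrophil sums were 1328 to 2307 CPM in young and 896 to 1689 CPM in old libraries, and endothelial sums 24.9 to 42.7 and 22.01 to 27.9 CPM. Proliferation sums did not overlap, at 714 to 768 CPM in young and 802 to 858 CPM in old libraries. The part of these shifts, and of the lower macrophage markers, in the 6 transporter calls was not tested.

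The amino acid response was read from 26 genes known to be raised by ATF4 or to belong to its pathway, with no transporter among them. Of 25 tested, 9 rose (2 to 9 on leaving out 1 library), 1 fell and 15 did not pass, which is 40.0% called beside 10.5% of all tested genes. The median log2 fold change was 0.22, beside -0.01 over all tested genes. Atf3, a stress-induced transcription factor, had 33.5, 34.3 and 37.4 CPM in young against 59.0, 54.5 and 57.3 CPM in old libraries (log2 fold change 0.70, SE 0.09, edgeR adjusted p = 0.00342). Cth, the enzyme that makes cysteine from cystathionine, rose 2.07-fold, and Chac1, which breaks down glutathione, rose 1.98-fold. Vldlr, a lipoprotein receptor, had 25.2, 15.6 and 20.7 CPM in young against 7.30, 7.19 and 4.996 CPM in old libraries, a 3.15-fold fall. Atf4 itself, chosen after its values were seen, had 53.5, 50.7 and 67.4 CPM in young against 84.4, 85.2 and 78.9 CPM in old libraries (log2 fold change 0.53, SE 0.12, edgeR adjusted p = 0.0340). The calls of Atf3 and Vldlr held without any 1 library, that of Chac1 was lost without young replicate 2, that of Cth without old replicate 1 or 2, and that of Atf4 held only without young replicate 3.

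Several transporters are textbook targets of ATF4, and 6 of them, picked after their values were seen, are given here. Slc6a9, which was called higher, was not among the 6 picked, and whether ATF4 acts on it was not examined. Slc3a2 (log2 fold change 0.49) and Slc38a2 (0.35) had positive values that did not pass with edgeR, nor did the other 4. Slc7a5 (0.10) and Slc1a5 (0.10) were closer to 0, Slc7a1 was at -0.08, and Slc1a4 was negative at -0.35. DESeq2 called Slc3a2 and Slc38a2 higher and Slc1a4 lower. Asns, the asparagine synthetase gene and a further classical target, was chosen after its values were seen and had 125.2, 134.8 and 107.9 CPM in young against 135.3, 158.0 and 128.5 CPM in old libraries, with overlapping ranges.

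Genes that pass amino acid signals to mTORC1 gave 0 higher and 3 lower of 37 tested with edgeR (0 to 1 and 0 to 5 on leaving out 1 library), 8 with an unadjusted p under 0.05, and 1 higher and 5 lower with DESeq2. Flcn, encoding folliculin, which acts on the Rag GTPases at the lysosome, had 76.1, 81.2 and 73.9 CPM in young against 53.8, 57.8 and 53.0 CPM in old libraries. The log2 fold change was -0.49 with SE 0.08 (edgeR adjusted p = 0.0114), a call lost without old replicate 1 or 3. The Rag GTPase gene Rragc fell 1.25-fold and Sesn3, of the sestrin family of nutrient-responsive mTORC1 inhibitors, fell 1.52-fold, and both calls held only without young replicate 3. The list's share of 8.11% called lies near the background of 10.5%.

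Of 40 tested enzymes of amino acid metabolism, 3 rose and 3 fell (1 to 4 and 2 to 3 on leaving out 1 library), which is 15% called beside 10.5% of all tested genes. Cdo1, which commits cysteine to taurine synthesis, had 55.9, 38.2 and 40.0 CPM in young against 17.1, 15.6 and 13.9 CPM in old libraries, a 2.88-fold fall (edgeR adjusted p = 0.00256). P4ha1, a subunit of the prolyl hydroxylase that modifies collagen, fell 1.73-fold. Il4i1, a secreted amino acid oxidase, went from 0.365 ± 0.0220 to 2.58 ± 0.540 CPM, but 86.3% of its exon length is shared with other gene models, mainly Tbc1d17. Cth is the fourth by p-value and belongs to this list as well. Of 20 tested amino acid and peptide transporters of other families, 2 rose and 1 fell (0 to 4 and 0 to 2 on leaving out 1 library), again 15% called. The creatine carrier Slc6a8 rose from 25.4 ± 0.767 to 34.8 ± 0.969 CPM. Slc6a17, a carrier of synaptic vesicles, rose 2.05-fold, and Slc6a15, a branched-chain amino acid carrier, fell 8.51-fold from 4.97 ± 2.12 to 0.574 ± 0.441 CPM. Each of these 3 calls was lost without at least 3 single libraries.

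Cytosolic aminoacyl-tRNA synthetases, which load amino acids onto tRNA, gave 0 calls among 22 tested with edgeR, 0 with an unadjusted p under 0.05, and 0 with DESeq2 or limma-voom. Their log2 fold changes ran from -0.14 to 0.09. The most abundant by CPM were Aars at 0.03 (SE 0.13) and Nars at -0.08 (SE 0.07).

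**Figure D5:**
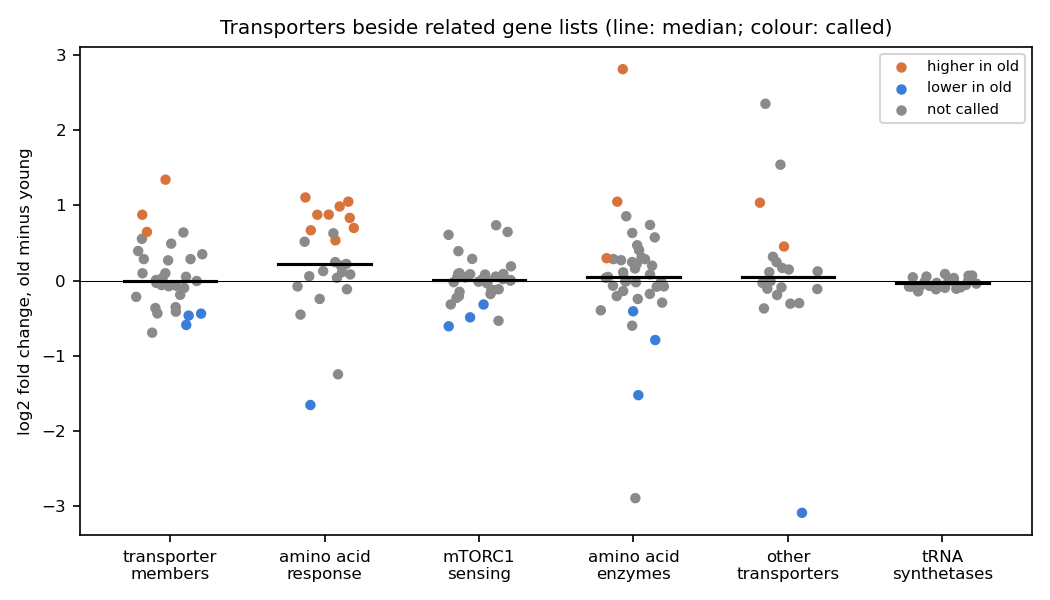
Log2 fold change (old minus young, y axis) of each tested gene in the transporter set and in 5 related gene lists (x axis), with the median as a black line and called genes in orange (higher) or blue (lower). The amino acid response list has a median of 0.22 and the synthetases lie between -0.14 and 0.09.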

How the data were processed

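The authors deposited whole-number counts of reads per Ensembl gene for 6 libraries. Per the labels' protocols, cDNA was amplified with a low-input kit, sheared and sequenced as read pairs of 100 bp. Per the submitters' processing notes, the aligners STAR 2.6.1a and HISAT2 2.1.0, the trimmers Trim Galore 0.50 and cutadapt 1.18, StringTie 1.3.4d, SAMtools 1.9 and Picard 2.18.15 were among the tools, with mm10. The counting tool, strand setting and handling of multiply mapped reads were not given in the sources used here. Amplified reads are not independent molecules, so count floors cover counting error only.

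Symbols were matched to 37607 of 39017 identifiers; unmatched ones held at most 0.398% of a library's counts. Positions, exon lengths and overlaps came from GENCODE M21 (mm10). All 6 libraries entered 1 fit in R 4.3.3 with edgeR 4.0.16: filterByExpr by age, TMM, robust quasi-likelihood test, Benjamini-Hochberg over 15567 genes. SE is |log2 fold change| over the square root of F. RPKM was computed here from CPM and exon length. The procedure was tested on simulated data. Libraries within an age differed beyond sampling noise. Alternatives were other size factors, DESeq2 1.42.0, limma-voom (limma 3.58.1), a non-robust dispersion, other filters, a replicate block and leaving out each library.

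The 5 related gene lists and the 13 marker lists were, like the transporters, chosen with earlier results of these data known. Called transporters are named with all values, other tested ones by role, and up to 4 called genes per list in order of p, or the 2 of highest CPM if none passed. Slc66a1 had no matching symbol, and synthetases were listed under older and newer symbols.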

Additional observations from a re-analysis of the deposited data

How the results depend on the processing

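Leaving out 1 library gave 418 to 1459 higher and 294 to 1168 lower genes, 1 to 4 higher and 1 to 4 lower transporters, and 3 to 17 higher and 3 to 11 lower among the 135 tested genes of the related lists (13 and 8 with all libraries). The extremes over all genes came without old replicates 1 and 2 and without young replicate 3. The DESeq2 test called 1331 genes higher and 1137 lower, against 909 and 731. That is 15.9% of all tested genes, against 10.5% in the main fit. Among the 32 transporters the DESeq2 test called 7 higher and 4 lower, against 3 and 3. Its added calls were Slc1a1, Slc38a2, Slc3a2 and Slc43a3 (higher) and Slc1a4 (lower), and it called 20 related genes higher. Slc1a4 was also called with upper-quartile factors, and Slc1a4 and Slc38a2 with at least 50 counts in 3 libraries and without young replicate 3. None of the 6 called transporters changed direction in any of these fits, and the 6 main calls were kept under other size factors, DESeq2, limma-voom, a non-robust dispersion and both other filters.

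With the replicate block, 2 transporters were higher and 1 lower, and 7 related genes were higher. Slc6a9, Slc7a8 and Slc43a2 then had adjusted p-values of 0.0671, 0.0624 and 0.0534. The numbers are not said to pair libraries, and same-numbered libraries deviated together only weakly (correlations 0.0883, 0.0340 and 0.0900 across genes), though each correlated best with its own number. The cause of these differences was not tested. Slc1a2, Slc7a3 and Slc7a10, with 4 to 38 counts per library, had SEs of 0.49 to 0.63 on the log2 scale, which limits what could be detected for them.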

Other observations

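In 3 transporters that did not pass, libraries of one age lay far apart. Slc1a5 had 125.7 CPM in old replicate 1 against 244.4 and 244.8 CPM in the other old libraries, and its log2 fold change was 0.35 without that library and -0.05 without old replicate 3. Slc38a10 reached 542.4 CPM in young replicate 3, the library with the highest connective tissue marker sum, against 296.2 and 321.2 CPM in the other young libraries. Slc36a2 had 2.71, 0.905 and 1.72 CPM in young libraries, a wider spread than in the old ones. These values were chosen after they were seen. Over all tested genes, young replicate 3 stood apart on the second principal component, at -51.75 against 26.81 and 23.09 for young replicates 1 and 2. No test was made of whether any of these libraries stands apart.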
